A study of Homo sapiens with 3 samples.

Results

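The collagen genes are a family of 41 autosomal protein-coding genes of 19229 in the annotation, taken as every gene whose symbol reads COL, a number, A and a number, apart from COL17A1. COL17A1 and the X-linked COL4A5 and COL4A6 are not described. Chromatin immunoprecipitation and sequencing (ChIP-seq) located Fra-1 and Fra-2 on the genome of MDA-MB-231, a line derived from a triple-negative (basal B) breast carcinoma, grown in medium with 10% fetal calf serum and with no treatment named in the labels. Fra-1 and Fra-2, the products of FOSL1 and FOSL2, pair with Jun proteins to form the transcription factor AP-1. There was 1 sample per antibody and 1 of input DNA, and the labels speak of 2 independent replicates for each. The Fra-1 list held 9679 peaks on autosomes and the Fra-2 list 12695, with 1 list per antibody and neither height nor score. The input was not used here. No value therefore has a spread between replicates, no test between the factors was made, and peak lists do not measure whether a collagen gene is expressed or whether these cells carry the markers of the line. Intervals are exact Clopper-Pearson 95% intervals, which hold for counting error and take peaks as independent.

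Collagens are extracellular proteins built around a triple helix of 3 chains. Fibrillar collagens form the cables of connective tissue, fibril-associated collagens coat them, type IV collagens form the sheet of basement membranes, and others anchor, bridge or span membranes. Carcinoma cells meet collagen as the matrix they invade and also make part of it, and AP-1 is best known there as a regulator of the enzymes that degrade it.

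A peak was in reach of a gene when its centre fell inside the gene body or up to 100 kb from any coding transcription start site (TSS). Most collagen genes had a peak in reach: 24 of 41 in the Fra-1 list and 31 of 41 in the Fra-2 list. Over all 19229 genes, 45.2% had a Fra-1 and 58.9% a Fra-2 peak in reach. There were 23 collagen genes with both, 8 with Fra-2 alone, 1 with Fra-1 alone and 9 with neither. Over all genes the shares were 42.5%, 16.4%, 2.68% and 38.4% in that order. COL13A1, a transmembrane collagen, had the most peaks, 6 of Fra-1 and 7 of Fra-2. COL4A2, a basement membrane chain, also had 6 Fra-1 peaks, and COL4A1 and COL6A3 had 5 each. For Fra-2, COL1A1, COL6A3 and COL7A1 had 6 each. The median was 1 Fra-1 and 2 Fra-2 peaks per collagen gene, against 0 and 1 per gene in the annotation, and the highest count of any gene was 30 and 32. At least 3 peaks were in reach of 9 collagen genes for Fra-1 and 16 for Fra-2, where 11.4% and 20% of all genes had as many. Among genes of at least 100 kb, 15 of 24 collagen genes had a Fra-1 and 17 of 24 a Fra-2 peak in reach, against 53.5% and 63.0% of all such genes. Among shorter genes, 9 of 17 and 14 of 17 did, against 43.3% and 58.0%.

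For many members the collagen gene was itself the closest gene. A peak in reach whose nearest coding TSS was the member's own was present for 20 collagen genes with Fra-1 and 24 with Fra-2, that is 48.8% and 58.5%, where 19.4% and 25.8% of all genes had one. In genes of at least 100 kb the members stood at 58.3% and 70.8%, against 39.5% and 46.8%, and in shorter genes at 35.3% and 41.2%, against 15.0% and 21.1%. The part that the spacing of neighbouring genes plays in these shares was not tested.

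The sequences below are those of peaks at collagen promoters, of peaks inside the genes with most of them, of peaks in 1 list only and of shared peaks that lack the AP-1 element. They are read from the plus strand of GRCh37, the assembly behind hg19. Capitals mark the AP-1 element TGACTCA, which reads TGAGTCA on the opposite strand. Each runs from the first to the last base of its peak or, for peaks over 300 bp wide, holds the middle 300 bases. Near promoters, the peaks of COL7A1 (shared), COL8A1 (Fra-2 only) and COL12A1 (Fra-2 only) read:
COL7A1 upstream, middle 300 bases of the Fra-1 peak, chr3:48633051-48633350: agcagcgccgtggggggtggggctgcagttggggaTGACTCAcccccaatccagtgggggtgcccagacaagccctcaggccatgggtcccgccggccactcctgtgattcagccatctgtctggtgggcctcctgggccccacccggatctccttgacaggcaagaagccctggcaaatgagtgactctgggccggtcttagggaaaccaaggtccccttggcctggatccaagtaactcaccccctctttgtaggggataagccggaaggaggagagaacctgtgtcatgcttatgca
COL8A1 upstream, Fra-2 peak, chr3:99356251-99356400: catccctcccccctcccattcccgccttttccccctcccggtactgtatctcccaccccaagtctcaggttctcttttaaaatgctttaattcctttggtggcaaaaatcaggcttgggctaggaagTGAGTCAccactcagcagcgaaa
COL12A1 at the start of the gene, Fra-2 peak, chr6:75915851-75916000: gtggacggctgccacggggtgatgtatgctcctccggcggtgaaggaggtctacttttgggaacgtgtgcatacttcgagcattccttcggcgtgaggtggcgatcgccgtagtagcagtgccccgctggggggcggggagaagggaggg

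Inside genes with at least 3 body peaks, the widest shared peak of at most 300 bp read as follows for COL4A2, COL13A1 and COL27A1, while COL5A2 and COL12A1, which also had 3, had no shared peak there. The COL27A1 peak, with 3 copies of the element, tied at 200 bp with a shared peak in intron 14 that held 1 copy, and the COL13A1 peak had none.
COL4A2 intron 4, Fra-2 peak, chr13:111061901-111062100: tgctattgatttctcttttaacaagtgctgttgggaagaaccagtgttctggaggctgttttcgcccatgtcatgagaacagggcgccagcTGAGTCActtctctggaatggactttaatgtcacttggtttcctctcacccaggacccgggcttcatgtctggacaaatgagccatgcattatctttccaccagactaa
COL13A1 intron 4, Fra-1 peak, chr10:71634451-71634600: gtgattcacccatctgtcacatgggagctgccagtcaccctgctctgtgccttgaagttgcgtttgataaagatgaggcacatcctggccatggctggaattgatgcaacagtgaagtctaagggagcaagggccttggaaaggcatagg
COL27A1 intron 37, Fra-1 peak, chr9:117039851-117040050: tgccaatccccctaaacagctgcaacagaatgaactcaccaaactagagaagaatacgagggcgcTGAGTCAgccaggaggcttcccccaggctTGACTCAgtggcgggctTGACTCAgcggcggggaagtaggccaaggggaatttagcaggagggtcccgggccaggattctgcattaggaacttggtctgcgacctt

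Peaks present in 1 list are shown next. Taking 2 of the widest body peaks of up to 300 bp from each list, with ties at the same width, those found for Fra-1 only had no copy and those found for Fra-2 only had at least 1:
COL13A1 intron 2, Fra-1-only peak, chr10:71621351-71621550: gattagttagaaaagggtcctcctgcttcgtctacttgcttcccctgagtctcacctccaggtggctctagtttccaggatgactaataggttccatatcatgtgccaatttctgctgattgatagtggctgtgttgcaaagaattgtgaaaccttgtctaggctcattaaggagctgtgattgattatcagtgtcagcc
COL8A1 intron 2, Fra-1-only peak, chr3:99500751-99500900: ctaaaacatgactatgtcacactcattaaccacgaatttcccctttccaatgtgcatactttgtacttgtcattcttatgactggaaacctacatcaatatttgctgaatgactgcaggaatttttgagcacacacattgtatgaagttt
COL12A1 intron 58, Fra-2-only peak, chr6:75808551-75808750: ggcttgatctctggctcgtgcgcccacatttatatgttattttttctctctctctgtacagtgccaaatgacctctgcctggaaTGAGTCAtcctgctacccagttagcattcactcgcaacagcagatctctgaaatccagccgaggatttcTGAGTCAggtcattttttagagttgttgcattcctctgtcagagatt
COL15A1 intron 2, Fra-2-only peak, chr9:101733551-101733750: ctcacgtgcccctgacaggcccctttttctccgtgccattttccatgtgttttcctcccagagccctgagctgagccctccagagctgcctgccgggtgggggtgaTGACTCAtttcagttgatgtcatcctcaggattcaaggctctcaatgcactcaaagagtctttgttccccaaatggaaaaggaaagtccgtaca

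Shared body peaks without the element in the Fra-1 interval are shown for intron 3 of COL4A2. Others lacked it too, among them the COL13A1 intron 4 peak above. The 200 bp COL11A1 peak in a coding exon also did, and was left out because it overlaps an annotated untranslated region. Of 23 shared Fra-1 body peaks, 18 held the element within 100 bp of the centre. At the second of the COL4A2 peaks a copy lay within 100 bp of the centre of the Fra-2 peak, beyond the edge of both peaks.
COL4A2 intron 3, Fra-1 peak, chr13:110972651-110972800: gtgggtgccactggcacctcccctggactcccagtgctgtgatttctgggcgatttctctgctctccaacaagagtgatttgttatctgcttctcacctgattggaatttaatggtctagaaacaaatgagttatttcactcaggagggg
COL4A2 intron 3, Fra-1 peak, chr13:111000001-111000150: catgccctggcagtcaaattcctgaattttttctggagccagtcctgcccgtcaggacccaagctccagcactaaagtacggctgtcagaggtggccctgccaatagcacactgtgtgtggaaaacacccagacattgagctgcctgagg

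The COL7A1 sequence above and a further set, chosen after the values had been seen, show the widest shared peak of COL7A1's promoter, of COL1A1, of COL18A1 and of COL28A1. The COL18A1 stretch held 4 copies of the element.
COL1A1 8.91 kb upstream, Fra-1 peak, chr17:48287751-48288050: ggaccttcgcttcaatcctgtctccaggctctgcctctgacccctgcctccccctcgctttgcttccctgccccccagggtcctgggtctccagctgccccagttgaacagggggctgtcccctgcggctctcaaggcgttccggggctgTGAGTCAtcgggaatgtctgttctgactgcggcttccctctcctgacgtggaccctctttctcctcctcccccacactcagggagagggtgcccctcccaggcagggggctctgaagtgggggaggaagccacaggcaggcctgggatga
COL18A1 41.0 kb upstream, middle 300 bases of the Fra-1 peak, chr21:46783976-46784275: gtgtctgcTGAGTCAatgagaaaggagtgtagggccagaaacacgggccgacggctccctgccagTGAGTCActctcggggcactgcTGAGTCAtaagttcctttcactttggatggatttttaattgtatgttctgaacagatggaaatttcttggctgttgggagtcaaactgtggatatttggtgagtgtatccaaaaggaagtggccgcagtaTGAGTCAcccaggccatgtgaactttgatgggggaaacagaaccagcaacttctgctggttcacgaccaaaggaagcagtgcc
COL28A1 intron 21, Fra-1 peak, chr7:7478551-7478850: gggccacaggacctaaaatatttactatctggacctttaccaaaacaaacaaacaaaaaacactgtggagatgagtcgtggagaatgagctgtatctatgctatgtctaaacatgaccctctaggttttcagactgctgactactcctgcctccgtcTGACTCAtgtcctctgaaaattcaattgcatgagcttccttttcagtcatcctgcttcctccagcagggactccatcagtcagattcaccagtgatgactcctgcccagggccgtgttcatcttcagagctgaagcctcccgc

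**Figure D1:**
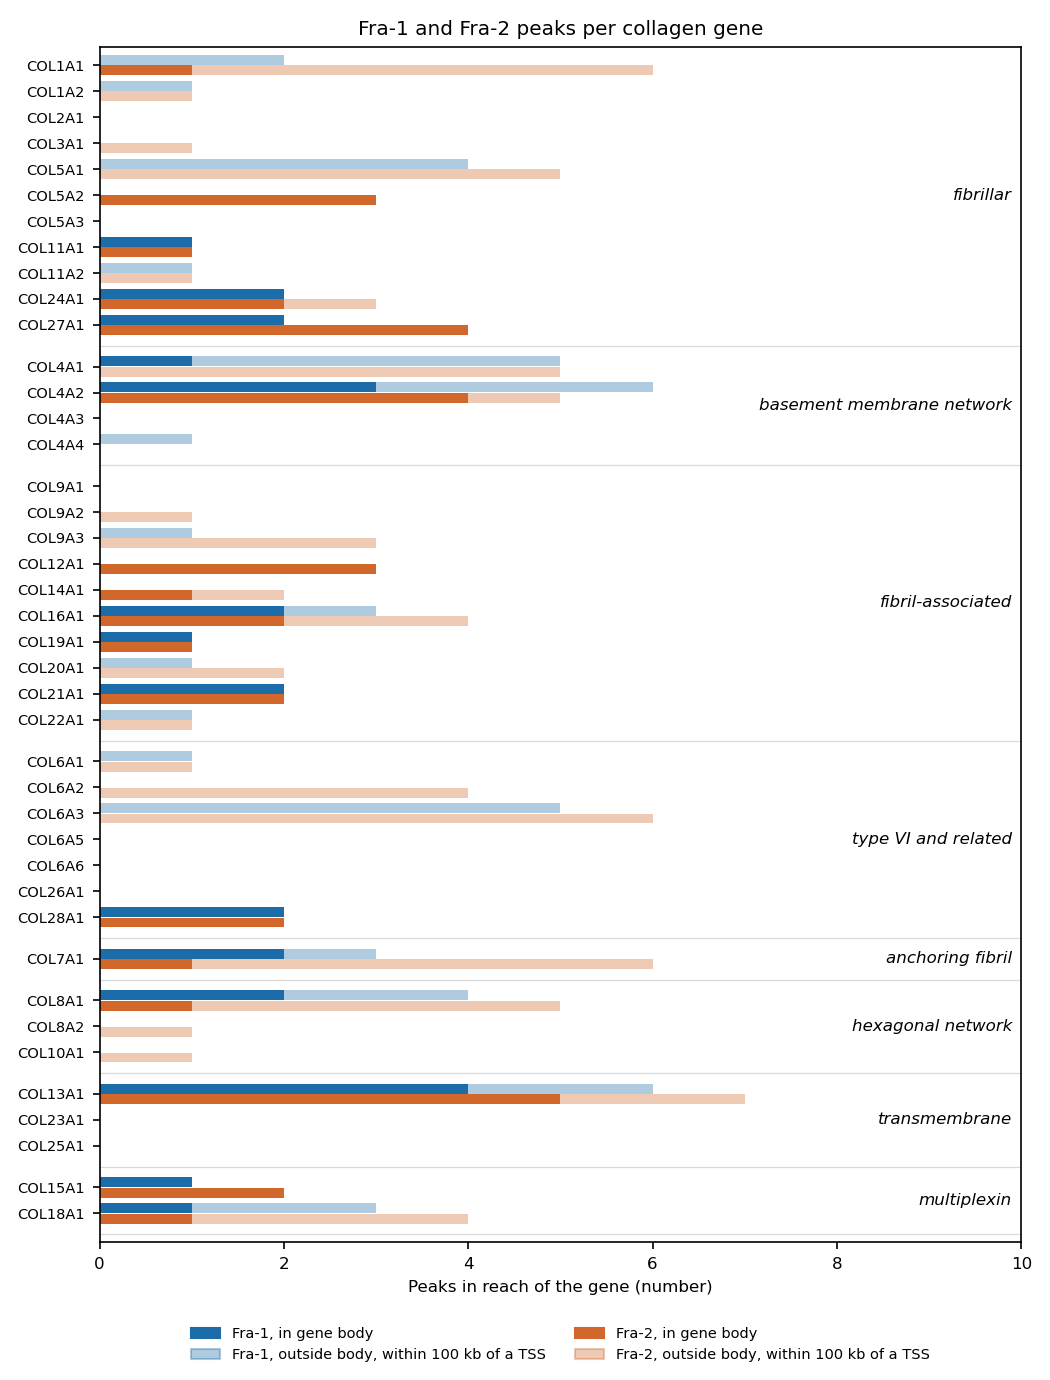
Number of Fra-1 (blue) and Fra-2 (orange) peaks in reach of each of the 41 collagen genes, grouped by structural class. Dark bars are peaks with their centre in the gene body and pale bars those outside it within 100 kb of a TSS. COL13A1 had 6 Fra-1 and 7 Fra-2 peaks, and 9 of the 41 genes had none, against 38.4% of all genes.

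Peaks in a collagen gene body were found in 14 genes for Fra-1 and 17 for Fra-2, 34.1% and 41.5% of the family, against 13.1% and 18.2% of all genes. Collagen genes are long, with a median of 139 kb against 27.6 kb over all genes. The part that length plays in these shares was not tested. Among genes of at least 100 kb the gap was smaller: 12 of 24 collagen genes held a Fra-1 and 14 of 24 (58.3%) a Fra-2 body peak, where 39.1% and 47.0% of all such genes did. Of the shorter members 2 of 17 and 3 of 17 did, against 7.28% and 11.8%. At least 3 body peaks were found in 2 collagen genes for Fra-1 (4.88%, against 2.12% of all genes) and in 5 for Fra-2 (12.2%, against 3.3%). All of these genes were at least 100 kb long, and among genes of that length the shares were 8.33% for Fra-1, below the 9.58% of all such genes, and 20.8% for Fra-2, against 14.1%. Per Mb of body, collagen genes held 4.27 Fra-1 and 5.91 Fra-2 peaks and all genes 3.31 and 4.79. Among genes of at least 100 kb, collagen genes held 4.06 and 5.91 per Mb and all such genes 3.21 and 4.28. Across the 41 members, Spearman's rho between gene length and body peaks was 0.334 for Fra-1 and 0.335 for Fra-2, as a description only. COL25A1 and COL23A1, transmembrane collagens of 494 and 353 kb, had no peak in reach of either factor, while COL7A1, the chain of the anchoring fibrils that tie epithelium to stroma, had 2 Fra-1 peaks and 1 Fra-2 peak within 31.3 kb.

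**Figure D2:**
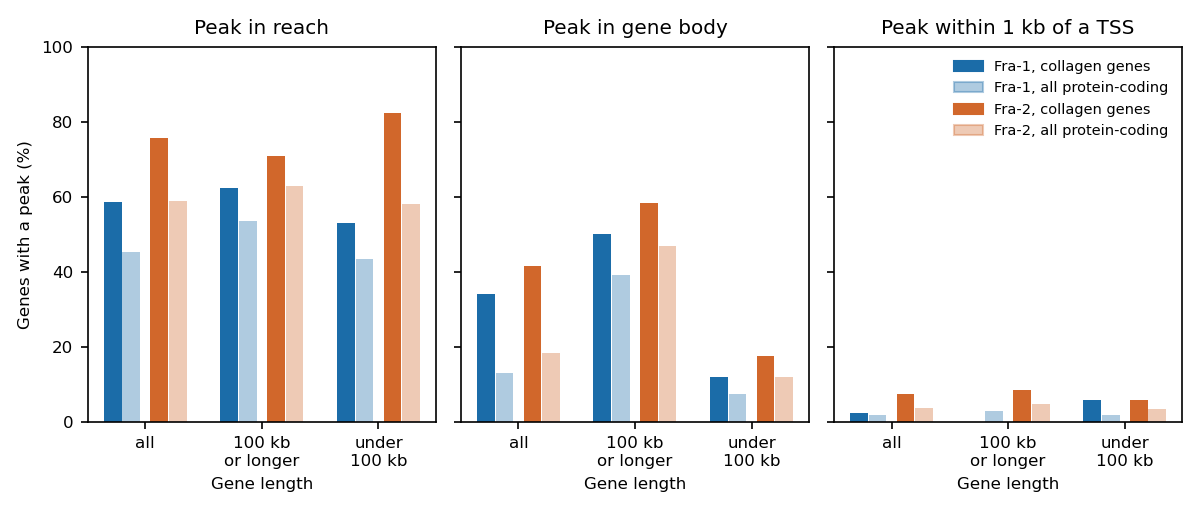
Percentage of collagen genes (dark) and of all autosomal protein-coding genes (pale) with a Fra-1 (blue) or Fra-2 (orange) peak, for peaks in reach, in the gene body and within 1 kb of a TSS, over all genes and by gene length. For body peaks, 34.1% of collagen genes against 13.1% of all genes had Fra-1, and among genes of at least 100 kb 58.3% against 47.0% had Fra-2.

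Promoters of collagen genes, like those of all genes, rarely carried a peak. Within 1 kb of a TSS, 1 gene had a Fra-1 peak (2.44%, against 1.9% of all genes) and 3 had a Fra-2 peak (7.32%, against 3.73%). COL7A1 (chromosome 3, 48601506 to 48632762, minus strand, ENSG00000114270) had both, as a pair 400 bp wide in each list, from 48633001 to 48633401 for Fra-1 and from 48632951 to 48633351 for Fra-2. Their centres lay 0.439 and 0.389 kb upstream of the TSS. COL8A1, a short-chain collagen of vessel walls and of the corneal endothelium's basement membrane, had a Fra-2 peak 0.993 kb upstream, at the edge of the window, and the nearest Fra-1 peak was 4.37 kb upstream. COL12A1, which decorates type I fibrils, had a Fra-2 peak of 150 bp centred 0.157 kb upstream of a coding TSS, within the annotated gene but outside its coding transcripts. No Fra-1 peak was in reach of COL12A1. With a window of 5 kb, 4 collagen genes had a Fra-1 peak (9.76%, against 5.82% of all genes) and 8 a Fra-2 peak (19.5%, against 9.94%).

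At COL7A1 further pairs lay at the far end of the gene. A coding exon held a 200 bp peak in both lists at 48603601 to 48603801, 5.36 kb from a coding TSS of COL7A1. Its nearest coding TSS, 2.49 kb away, was that of UCN2, a gene of a corticotropin-releasing peptide family. The widest peaks near any collagen gene spanned the end of its last exon, 550 bp from 48601251 to 48601801 in the Fra-1 list and 600 bp from 48601201 to 48601801 for Fra-2. The centre of the Fra-1 peak fell inside COL7A1 and that of the Fra-2 peak just past its end. Neither had the AP-1 element within 100 bp of its centre, though each interval held 2 copies. Both of these widest peaks were also nearer to UCN2, whose TSS was 0.312 and 0.287 kb away. The other 3 Fra-2 peaks in reach were in 1 list only, and each was nearer to another gene: SHISA5, PFKFB4 and UQCRC1.

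Of the fibrillar collagens, 7 of 11 had a Fra-1 and 9 of 11 a Fra-2 peak in reach, against 45.2% and 58.9% of all genes. COL1A1 (chromosome 17, 48261462 to 48278993, minus strand), the main chain of type I collagen, had 2 Fra-1 peaks, both shared. The nearer was 300 bp wide in both lists, from 48287751 to 48288051, 8.91 kb upstream. The other lay 17.3 kb upstream, with widths of 150 bp (Fra-1) and 300 bp (Fra-2). A Fra-2-only peak of 150 bp was centred in intron 11, and 3 more Fra-2-only peaks lay 77.7 to 99.1 kb from a TSS, nearer to PDK2 or TMEM92. The partner gene COL1A2 had a single shared peak, 93.7 kb upstream, and no peak in its body.

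The type V chains, which nucleate type I fibrils, had different layouts. COL5A1 had 4 Fra-1 and 5 Fra-2 peaks, all upstream between 39.0 and 97.3 kb and none in its 203 kb body. All 4 Fra-1 peaks were shared, and the one nearest to the gene, with widths of 400 bp (Fra-1) and 350 bp (Fra-2), had no element within 100 bp of its centre in either list. COL5A2 had 3 peaks, all in introns and all in the Fra-2 list only. One of them, from 189902451 to 189902551 on chromosome 2, was also the single peak in reach of COL3A1, a chain of distensible tissues that lies next to COL5A2. COL5A3 had none. COL27A1, a fibrillar collagen of cartilage, held 2 Fra-1 and 4 Fra-2 peaks in its introns. Both Fra-1 peaks coincided base for base with a Fra-2 peak of 200 bp, in introns 14 and 37, and a Fra-2-only peak lay within the same intron as each. Of 32 copies of the AP-1 element in the COL27A1 body, 4 were in a Fra-1 and 6 in a Fra-2 peak, more than in any other collagen gene for either factor.

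COL24A1, a fibrillar chain of developing bone and cornea, held 2 shared peaks in its introns 306 and 355 kb from its TSS, which made ZNHIT6 the nearest gene by TSS. COL11A1 and COL11A2, the type XI chains of cartilage, had 1 shared peak each, in a coding exon 203 kb from the TSS and 13.1 kb upstream respectively. The COL11A2 peak, 400 bp wide in the Fra-2 list, was 0.969 kb from a TSS of HSD17B8. COL2A1, the main collagen of cartilage, had none in reach. Its closest Fra-2 peak lay 100.41 kb from a TSS, just past the limit, and the farthest peak admitted by distance was a Fra-2 peak 99.8 kb from a COL14A1 TSS.

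The basement membrane chains COL4A1 and COL4A2 are transcribed away from each other from a common promoter region on chromosome 13. Their locus had 8 peaks in each list, none within 1 kb of a TSS. COL4A2 held 3 Fra-1 and 4 Fra-2 peaks in introns 3 and 4, of which 3 were shared, and COL4A1 held a Fra-1-only peak in intron 1. A shared pair of 200 bp, at 110773001 to 110773201 in both lists, lay past the end of COL4A1. None of the 29 copies of the element in the COL4A1 body was in a peak, and 2 of 39 in COL4A2 were in a Fra-2 peak. The other head-to-head pair, COL4A3 and COL4A4 of the kidney glomerulus, had in all 1 Fra-1 peak of 100 bp, past the end of COL4A4, and no Fra-2 peak.

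Among fibril-associated collagens, 6 of 10 had a Fra-1 and 9 of 10 a Fra-2 peak in reach, against 45.2% and 58.9% of all genes. COL12A1 held 3 Fra-2-only body peaks. The widest, 200 bp in intron 58, carried 2 copies of the element, and the others, in intron 1 and at the start of the gene, carried none. COL16A1 had shared pairs in introns 2 and 22 and another past its end near TINAGL1. COL20A1 had 1 shared pair 60.6 kb upstream, nearer to BIRC7, and a Fra-2-only peak. COL21A1 had 2 shared pairs and COL19A1 1, all in introns. COL14A1 had 2 Fra-2-only peaks, and COL22A1, with 78 copies of the element in its body, the most of any member, had no body peak and 1 shared pair 61.9 kb upstream. COL9A2 had a single Fra-2-only peak, nearer to TMCO2. The type IX chains had 1 shared peak among them, 350 bp wide in both lists and 76.6 kb upstream of COL9A3, without the element within 100 bp of the centre. COL9A3 also had 2 Fra-2-only peaks, and COL9A1 had no peak in reach.

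Of type VI and related collagens, 3 of 7 had a Fra-1 and 4 of 7 a Fra-2 peak in reach, close to the 45.2% and 58.9% of all genes. COL6A3 had 5 Fra-1 and 6 Fra-2 peaks, none in its body. Its widest pair, 450 bp in both lists, lay 86.8 kb upstream for Fra-1 and 86.9 kb for Fra-2, nearer to MLPH, a gene of melanosome transport. COL6A1 had 1 shared pair of 100 bp, 6.88 kb upstream, and COL6A2 had 4 Fra-2-only peaks that were all nearer to another gene, FTCD or SPATC1L. COL28A1, which carries von Willebrand domains, held 2 shared pairs in introns 21 and 11. The first, 300 bp wide in the Fra-1 list and 250 bp in the other, lay 1.64 kb from an internal coding TSS. COL6A5, COL6A6 and COL26A1 had none.

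COL13A1 (chromosome 10, 71561636 to 71724031, plus strand), a collagen of cell adhesions and the neuromuscular junction, held 4 Fra-1 and 5 Fra-2 body peaks. Pairs of 350 bp in both lists in intron 1 (71579551 to 71579901) and of 450 bp (Fra-1) and 350 bp (Fra-2) in intron 2 (from 71624101) each had 1 copy of the element within 100 bp of the centre. A pair in intron 4 had none. Upstream, a peak 32.3 kb from the TSS had widths of 250 bp (Fra-1) and 450 bp (Fra-2). In total 5 of the 6 peaks of Fra-1 at COL13A1 were shared, and 5 of the 7 of Fra-2.

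Both multiplexins, basement membrane collagens that carry sugar chains, had peaks of both factors. COL18A1, the precursor of endostatin, had 3 Fra-1 peaks, all shared. The widest, of 350 bp (Fra-1) and 450 bp (Fra-2), lay 41.0 kb upstream, with 4 copies of the element inside the peak, and others lay 38.1 kb upstream and in intron 2. COL15A1 had a shared pair in intron 5 and a Fra-2-only peak in intron 2. Of the hexagonal network collagens, COL8A1 had 4 Fra-1 peaks and 5 of Fra-2, among them 2 shared pairs, and COL8A2 and COL10A1 had 1 Fra-2-only peak each, nearer to MAP7D1 and FRK.

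**Figure D3:**
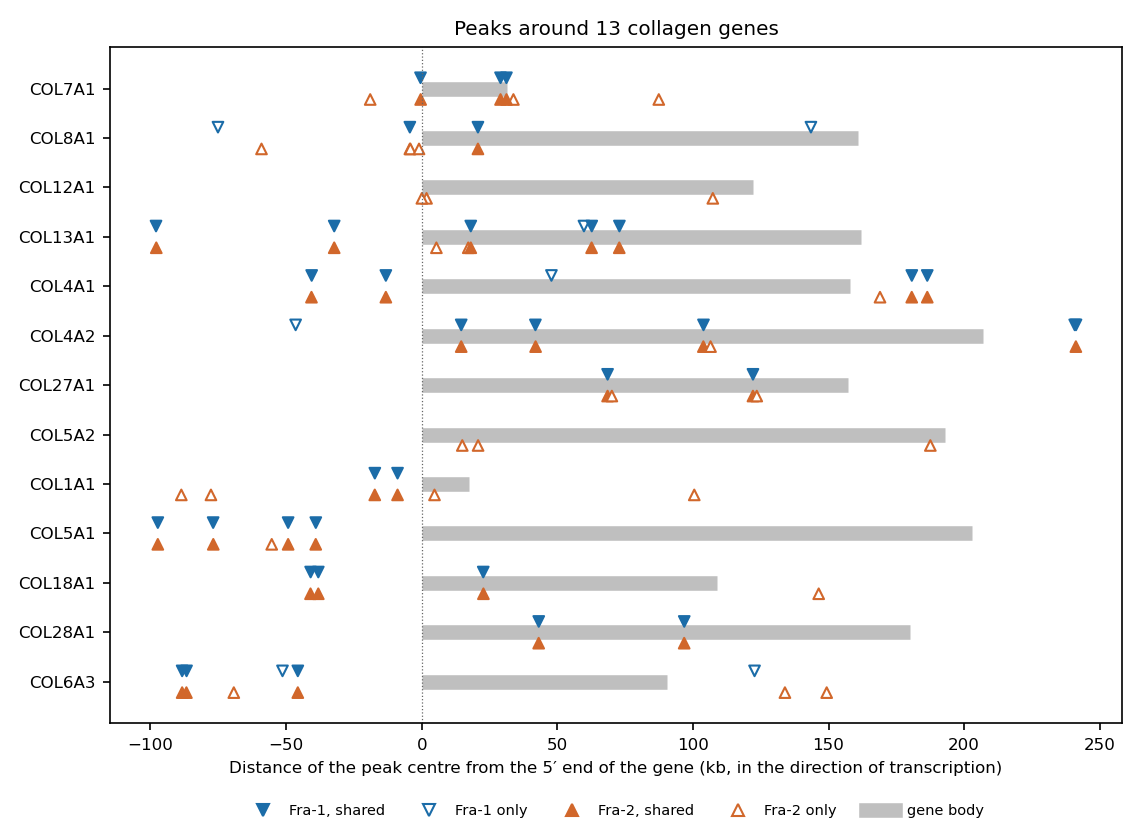
Peak centres around 13 collagen genes, by distance from the 5′ end of the gene in kb along the direction of transcription. Downward triangles are Fra-1 and upward triangles Fra-2 peaks, filled where the peak overlaps one of the other list, and grey bars are gene bodies. All COL5A1 peaks lie upstream of the gene, and all COL5A2 and COL27A1 peaks lie inside.

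Counted once each, 56 Fra-1 and 90 Fra-2 peaks were in reach of a collagen gene, at 98 distinct sites, and 3 peaks of each list were in reach of 2 or more members. Fra-2 made up 61.6% (53.2 to 69.6) of these peaks and 56.7% of all autosomal peaks. The median distance to the nearest collagen TSS was 43.8 kb in each list, and 9 Fra-1 and 16 Fra-2 peaks were within 10 kb. Of the body peaks, 23 of 26 (Fra-1) and 31 of 36 (Fra-2) sat in introns of the canonical transcript, 3 and 5 of them in intron 1. These distances and intron counts are given for collagen genes only, with no value over all genes beside them. None of the collagen body peaks lay in a repeat-like or gap-flanking region, and few peaks in any protein-coding gene body did, 1.9% for Fra-1 and 1.81% for Fra-2.

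Overlap of the lists at collagen genes was near that of the whole lists. Of the Fra-1 peaks 48 of 56 (85.7%, 73.8 to 93.6) overlapped one of the Fra-2 list by 1 bp or more, against 79.6% of all autosomal Fra-1 peaks outside repeat-like regions. Of the Fra-2 peaks 48 of 90 (53.3%, 42.5 to 63.9) were shared, against 59.1%. Both intervals contained the share of the whole list. In the 48 pairs the Fra-2 peak was wider in 18, equal in 22 and narrower in 8, that is 37.5%, 45.8% and 16.7%, and over 7691 pairs on autosomes the shares were 37.4%, 40.7% and 22%.

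The Fra-2-only peaks were often close to a neighbouring gene. The nearest coding TSS belonged to a collagen gene for 34 of 48 shared Fra-2 peaks and for 21 of 42 Fra-2-only peaks. A coding TSS of any gene was within 5 kb of 23 of the 42 Fra-2-only peaks (54.8%, 38.7 to 70.2) and of 9 of the 48 shared ones (18.8%). Among all peaks in reach of some protein-coding gene, the shares were 26.3% of 4111 Fra-2-only and 18.6% of 5549 shared Fra-2 peaks. For 16 of the 23 the gene within 5 kb was not a collagen gene. The distance of 5 kb was chosen after the positions had been seen, the peaks come from 23 members, and neighbouring peaks share a locus. How far gene density around collagen genes plays a part was not tested.

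Most peaks near collagen genes carried the AP-1 element. A window of 100 bp to each side of the centre held it in 41 of 56 Fra-1 peaks (73.2%, 59.7 to 84.2) and in 75 of 90 Fra-2 peaks (83.3%, 74.0 to 90.4). Over all autosomal peaks outside repeat-like regions, windows of the same length held it in 65.6% and 75.6%, and over all autosomal peaks in 57.9% and 68.5%. The 48 shared Fra-1 peaks held it in 39 cases (81.2%, 67.4 to 91.1) and the 48 shared Fra-2 peaks in 41 (85.4%, 72.2 to 93.9). Of shared peaks outside repeat-like regions, 71.4% and 71.8% held it. The 8 Fra-1-only peaks held it in 2 cases (25.0%, 3.19 to 65.1) and the 42 Fra-2-only peaks in 34 (81.0%, 65.9 to 91.4), against 43.1% and 81.0% of such peaks outside repeat-like regions. The element nearest the centre was a median of 20 bp away in Fra-1 and 15 bp in Fra-2 peaks, and 21 and 20 bp over all autosomal peaks with one.

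**Figure D4:**
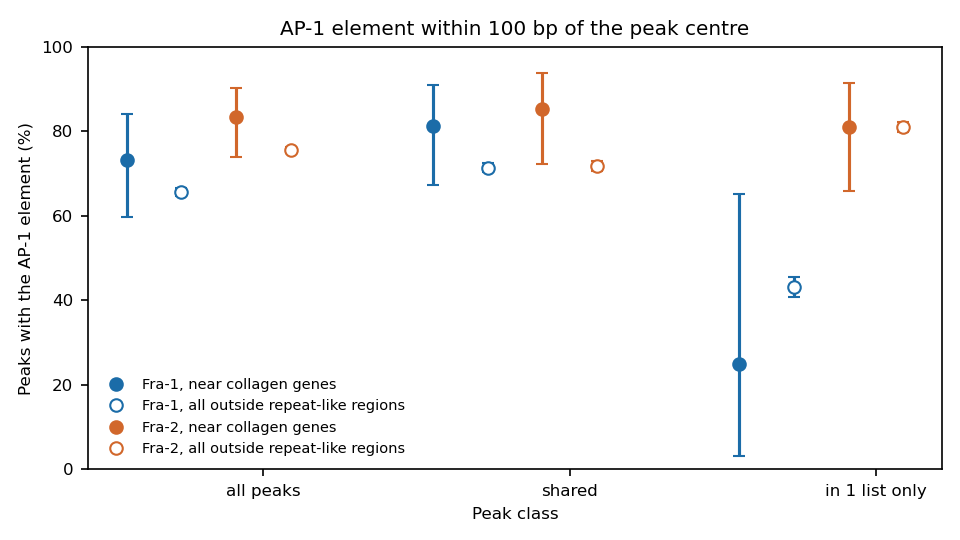
Percentage of peaks with the AP-1 element within 100 bp of the centre, for peaks in reach of collagen genes (filled) and all autosomal peaks outside repeat-like regions (open), by list and by whether the peak overlaps the other list. Bars are exact 95% binomial intervals. The 8 Fra-1-only peaks at collagen genes stand at 25.0% and the 42 Fra-2-only peaks at 81.0%.

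Other motifs were sought on both strands of the same windows, and their shares are set beside those of all autosomal peaks outside repeat-like regions. The TEAD motif, GGAATGC or GGAATGT, was in 21.4% of peaks for Fra-1 (11.6 to 34.4) and 17.8% for Fra-2 (10.5 to 27.3), against 13.8% and 11.3%. The RUNX core TGTGGT was in 14.3% (6.38 to 26.2) and 12.2% (6.26 to 20.8), against 20% and 18.8%. CAGGTG, the E-box of ZEB and SNAIL repressors, was in 8.93% and 14.4%, against 12.3% and 12.7%. The FOXA motif TGTTTAC was in 3.57% (0.435 to 12.3) and 1.11% (0.0281 to 6.04), that is 2 peaks and 1 peak, against 5.77% and 4.82%. TGACGTCA, the cyclic AMP response element, was in none of 56 and 90, and 0.238% and 0.45% of the comparison peaks held it. None of these words contains the AP-1 element, though neighbouring copies can overlap at their ends. Taken over all peaks in reach, the intervals of the AP-1, TEAD, RUNX, FOXA and CAGGTG shares contained the comparison share in both lists. For the AP-1 element in shared Fra-2 peaks alone, the interval began at 72.2%, just above the 71.8% of the comparison peaks.

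Few copies of the element in collagen genes were in a peak. Collagen bodies held 1036 copies, of which 21 were in a Fra-1 peak (2.03%, 1.26 to 3.08) and 33 in a Fra-2 peak (3.19%, 2.2 to 4.44). Over all autosomal protein-coding bodies 1.73% and 2.68% of 195885 copies were. COL25A1 had 70 copies and COL23A1 52 without a peak, while COL7A1 had 5 copies, 2 of them in a peak of each factor, and COL16A1 8 copies, 2 of them so.

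Genes that act on collagen were looked at in the same way, on a list of 35 genes. Of them 25 had a Fra-1 (71.4%) and 27 a Fra-2 peak in reach (77.1%), where all genes gave 45.2% and 58.9%. All 7 collagen receptors had peaks of both: the integrin chain ITGB1 5 of each, ITGA2 4 of each, and the discoidin receptor DDR2 2 of each. The 35 genes were not split by length, and these 3 receptor genes are each over 100 kb long. Of all genes of at least 100 kb, 53.5% had a Fra-1 and 63.0% a Fra-2 peak in reach. Of the 5 lysyl oxidases, which cross-link collagen, 4 had Fra-1 and all 5 Fra-2 peaks, with 5 and 6 in the body of LOXL2. Of the 14 genes for hydroxylation and glycosylation 9 and 10 had a peak, and PLOD2, a lysyl hydroxylase, had a shared 150 bp pair at its promoter. Propeptide removal had 3 and 4 of 6, among them BMP1 with 1 Fra-1 and 3 Fra-2 peaks. Of the 3 genes of folding and export, 2 had a Fra-1 (66.7%) and 1 a Fra-2 peak (33.3%). SERPINH1, the collagen chaperone, had 2 and 4 peaks, FKBP10 had 1 Fra-1 peak only, and MIA3 had none.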

How the data were processed

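The labels list Bowtie2 and hg19 among the submitters' processing notes, with no version or role. How peaks were called and filtered, how the input entered and how replicates were combined is not given in the sources used here. Each deposited file holds, in place of counts, other values: 2 positions for every peak, set by the authors on a grid of 50 bp. Positions are printed as given, and width is end minus start. Read depth is unknown, and intervals rest on the number of peaks. Genes and coding TSSs came from GENCODE 44 lifted to GRCh37, and sequences from GRCh37. Overlap means at least 1 bp, and chromosomes X, Y and M were left out. Repeat-like regions flank assembly gaps of 1 Mb or more (by up to 1 Mb) or have over 20% recurring words of 10 bases within 1000 bp of the centre. Values are described beside all genes or peaks, without tests. Tools were pysam 0.24.0, scipy 1.17.1, pandas 2.3.3, numpy 2.4.6 and matplotlib 3.10.9 under Python 3.11.15. Assignment, overlap and motif search were tested on simulated data. Genes described in full had a promoter peak, at least 3 body peaks or one of the 10 widest peaks of a list. The members and lists were chosen with earlier results of these data known.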

Additional observations from a re-analysis of the deposited data

How the results depend on the processing

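No paired analysis was possible because there is 1 peak list per antibody and no replicate list, and no result comes from a test. Values are given for Fra-1 and then Fra-2. With 10 kb in place of 100 kb around a TSS, 16 and 18 collagen genes had a peak in reach (24 and 31 at 100 kb), 30 and 43 peaks were in reach (56 and 90), and 4 and 7 genes had at least 3 (9 and 16). At 50 kb, 10 genes had at least 3 Fra-2 peaks. Among peaks at least 200 bp wide, 14 genes had a Fra-1 peak in reach and 8 in the body, 26 and 48 peaks were in reach, 3 and 8 genes had at least 3, 1 gene had a Fra-2 promoter peak (3 over all widths), 66.7% of Fra-2 peaks were shared (53.3% over all widths) and 91.7% held the AP-1 element (83.3%). No share of all genes is given for the 10 kb, 50 kb and 200 bp settings. How collagen genes compare with all genes at those settings is therefore not shown. With a promoter of 5 kb, 4 and 8 genes had a peak there. Within 50 bp of the centre, 71.1% of Fra-2 peaks held the element. The other alternatives kept counts within 1.5 times and shares within their interval: the gene start alone as TSS, peaks outside repeat-like regions, 1 bp of body overlap, nearest TSS only, members within 200 kb counted once (36 loci), reciprocal overlap of 50%, centres within 500 bp and the element anywhere in the peak. By construction, a smaller distance or a least width can only lower the counts of genes and peaks, and a wider promoter can only raise them. A narrower window can only lower the share with the element. The direction in which the shares move among wide peaks is not fixed in this way. The cause of each shift was not tested.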
